A study of Sinocyclocheilus angustiporus and Sinocyclocheilus anophthalmus with 4 samples.

Results

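Sarcomere and muscle contraction genes were compared between the eyes of 2 species of Sinocyclocheilus, a genus of freshwater fish related to carp; RNA came from whole eyes of adults. Members were the rows of the eye expression tables whose descriptive name contains myosin, troponin, actinin, titin as a word, nebulin, creatine kinase, parvalbumin, myomesin, myozenin, tropomodulin, ryanodine receptor or "actin, alpha". This gave 95 of 9649 rows, carrying 92 different names when upper and lower case are not told apart. Tropomyosins entered because their name contains myosin, and no row name contained myomesin. The surface fish group was the eye of Sinocyclocheilus angustiporus and the cavefish group the eye of Sinocyclocheilus anophthalmus, each untreated as far as the labels say and each represented by 1 library. Brain libraries of both species are also labelled and were not analysed here. With 1 library per species nothing below could be checked in replicates or tested, and the spread between animals is unknown.

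The sarcomere is the contractile unit of striated muscle. Myosin heavy and light chains form its thick filaments, actin with tropomyosin and the troponin complex forms its thin filaments, and titin and the Z-disc proteins hold both in register. Calcium released through ryanodine receptors binds troponin C and frees actin for myosin, parvalbumin then takes up calcium, and creatine kinase restores ATP. Fast, slow and cardiac fibres use different genes for most of these parts. In a fish eye such genes are known from the extraocular muscles, which turn the eyeball. Smooth muscle serves vessels and the front of the eye. Non-muscle and unconventional myosins include motors that move membranes and organelles in retinal and epithelial cells.

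Levels are the RPKM deposited by the authors, a unit that divides a transcript's reads by its length and by the library's mapped reads, so that levels of different genes share a scale. Ratios are log2((cavefish RPKM + 1) / (surface fish RPKM + 1)), and 2-fold means a log2 ratio of 1 or -1. In each pair of levels the surface fish value comes first, and a number in brackets after a pair is its log2 ratio. The median ratio of all rows was -0.27. Whether this reflects the scale of the libraries or lower levels in many rows was not tested, so counts relative to this median are given as well. The deposited tables hold only rows that reached 5 RPKM in at least 1 eye. Of the 95 members, 79 reached 5 RPKM in both eyes, 6 only in the cavefish eye and 10 only in the surface fish eye. Read numbers, and so the counting error of each value, are unknown. As background for the tissue label, rod transducin alpha, a phototransduction G protein, stood at 2542 RPKM in surface fish and 759.7 RPKM in cavefish eyes, and 28 lens crystallin rows summed to 11147 and 13877 RPKM. Both libraries thus held the defining transcripts of an eye.

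Most rows of striated muscle forms stood higher in the cavefish eye, and most non-muscle rows stood lower. Of all 95 members, 18 were past 2-fold higher in cavefish and 9 past 2-fold lower. Over all 9649 rows, 3.83% were 2-fold higher and 10.1% were 2-fold lower. The members separated by form. Among 37 striated rows, 15 (40.5%) were 2-fold higher and 1 was lower, with a median of 0.75. Above 0 lay 29 of the 37, against 3009 of all 9649 rows. Among 34 smooth and non-muscle rows, 1 was 2-fold higher and 7 (20.6%) were lower, with a median of -0.60. Relative to the median of all rows, 20 striated rows were 2-fold higher and 1 lower, and 1 smooth or non-muscle row was higher and 5 lower. On that scale 6.71% of all rows were 2-fold higher and 5.55% lower. Rows under 5 RPKM in 1 eye are in the tables only through the eye where they are high. Among the 79 members at 5 RPKM or more in both eyes, 15 were 2-fold higher and 7 lower. Among the 31 such striated rows 13 were 2-fold higher and 1 lower, and 24 lay above 0. Of all 7719 rows at that level in both eyes, 179 were higher and 677 lower. The median over all 95 members, -0.07, averages these opposite forms and describes neither.

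The 37 striated rows summed to 1469 RPKM in surface fish and 3037 RPKM in cavefish eyes, or 0.215% and 0.456% of all RPKM. The 8 rows named fast summed to 298 and 644 RPKM, a ratio of 2.16, and the 8 rows named slow to 137 and 269 RPKM, a ratio of 1.96. These sums thus differed between the eyes by like amounts, but they hold unlike genes. Slow myosin heavy chain 2, at 69.9 and 140.3 RPKM, was the largest slow row, and no adult fast heavy chain was matched. For matched parts, the ratios of sums were, fast then slow, 2.11 and 2.39 for troponin C and 1.99 and 0.86 for troponin I. They were 2.69 and 1.38 for troponin T, 1.54 and 5.01 for light chains, and 2.10 and 1.78 for myosin binding protein C. No test of a difference between fast and slow forms could be made. The 4 cardiac rows summed to 135.0 and 205 RPKM, a sum of opposite parts. The cardiac-type ryanodine receptor rows among them summed to 74.7 and 61.0 RPKM. Cardiac actin 1b stood at 49.9 and 117 RPKM and cardiac troponin T2e at 10.3 and 26.7 RPKM. In a whole-eye library, more muscle cells, more RNA per muscle cell and a smaller share of other tissues cannot be told apart.

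**Figure D1:**
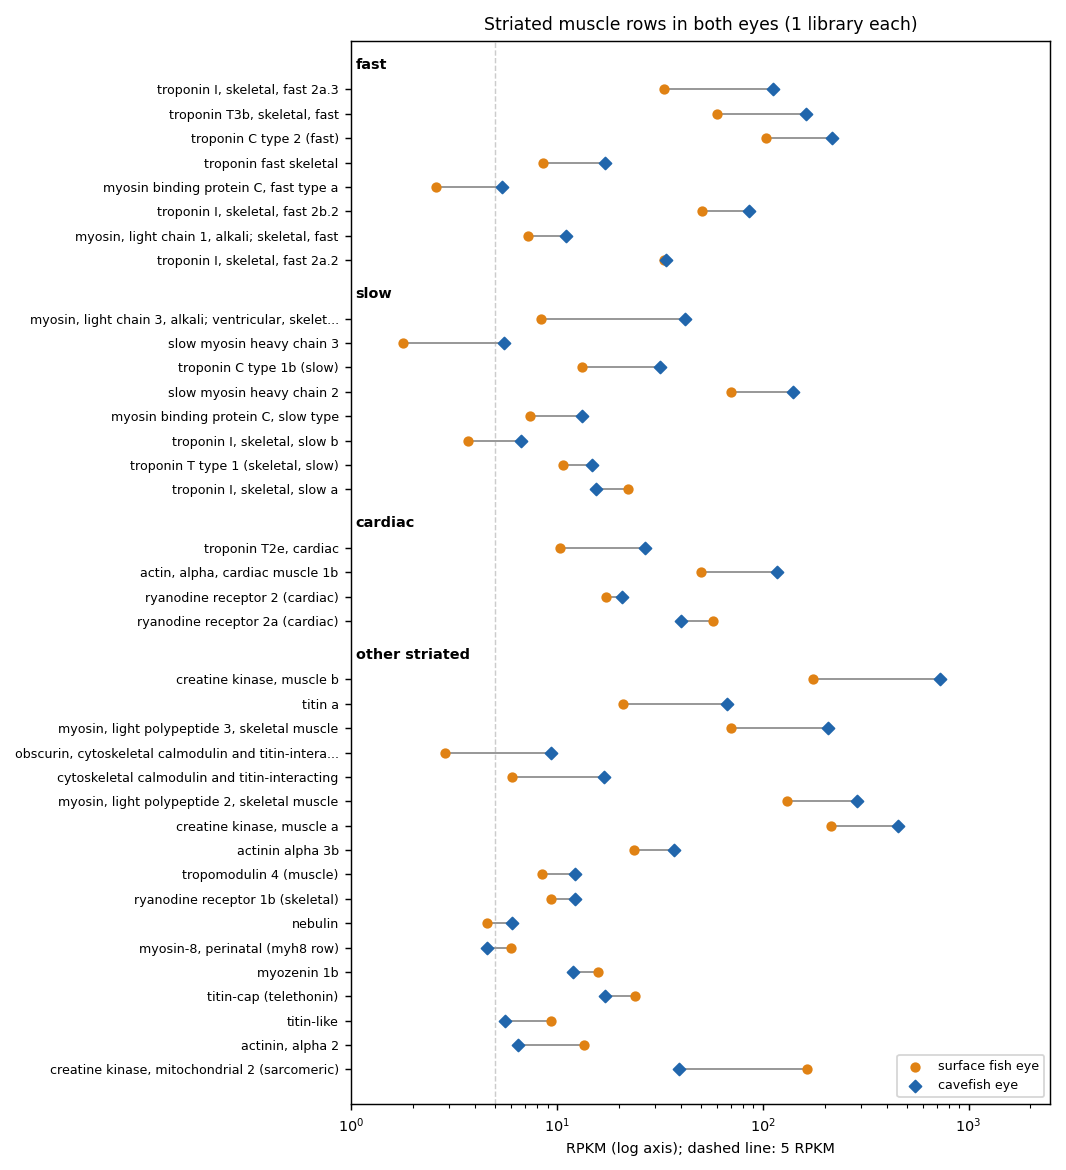
RPKM on a log axis of the 37 striated rows in the surface fish eye (circles) and the cavefish eye (diamonds), 1 library each. Rows are grouped by form, set by the name or by where the gene is known to act, and ordered by log2 ratio. The cavefish value is the higher one in 29 rows; muscle creatine kinase b and titin a show wide gaps to the right, and sarcomeric mitochondrial creatine kinase the widest gap to the left.

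Among the rows matched by name, light chains, which sit on the neck of the myosin head, held the most abundant thick filament transcripts. The regulatory light chain row named myosin light polypeptide 2, skeletal muscle, stood at 131 RPKM in surface fish and 286 RPKM in cavefish eyes, a log2 ratio of 1.12. Myosin light polypeptide 3, skeletal muscle, stood at 70.2 and 206 RPKM (1.54). Both skeletal rows were past 2-fold. Myosin light chain 3, the alkali form of ventricle and slow muscle, stood at 8.36 and 41.9 RPKM, and its log2 ratio of 2.19 was the highest of all members. The fast alkali light chain 1 lay within 2-fold, at 7.20 and 11.1 RPKM (0.56). Myosin light chain 10, a regulatory light chain whose name gives no muscle type, stood at 2.97 and 15.3 RPKM (2.04); its surface fish value was under 5 RPKM, so the cavefish value alone kept it.

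Heavy chains carry the motor domain. Slow myosin heavy chain 2 was the most abundant of them, at 69.9 RPKM in surface fish and 140.3 RPKM in cavefish eyes. Its log2 ratio of 0.99 lay just under the 2-fold threshold and was 1.26 relative to the median of all rows. Slow myosin heavy chain 3 stood at 1.79 and 5.55 RPKM (1.23) and again entered only through the cavefish eye; with a pseudocount of 5 RPKM it came under 2-fold, at 0.64. A row annotated to the perinatal skeletal chain myosin-8 went the other way, at 6 and 4.56 RPKM (-0.33), and was kept by its surface fish value alone. No value for an adult fast skeletal heavy chain was matched by name. The rows counted as fast are light chain 1, myosin binding protein C fast type a and the fast troponins. Skeletal myosin light polypeptides 2 and 3 are not named fast and were counted with the other striated rows. Myosin binding protein C, which links thick filaments to titin, stood at 2.58 and 5.42 RPKM for fast type a (0.84) and at 7.41 and 13.2 RPKM for the slow type (0.75). The fast type a row was kept by its cavefish value alone.

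Thin filament genes stood higher in most rows. Cardiac alpha actin 1b, an actin of the contractile filament, stood at 49.9 RPKM in surface fish and 117 RPKM in cavefish eyes (1.21). The smooth muscle alpha actin 2 stood at 55.0 and 44.6 RPKM (-0.30). The order of these actins was thus reversed between the eyes. Tropomodulin 4, which caps the slow-growing filament end in muscle, stood at 8.42 and 12.2 RPKM (0.49).

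Troponin C binds calcium, troponin I blocks the actin-myosin contact, and troponin T ties both to tropomyosin. Fast troponin C type 2 stood at 103 RPKM in surface fish and 218 RPKM in cavefish eyes (1.07). Fast troponin T3b stood at 60.0 and 161 RPKM (1.41). The 3 rows of fast troponin I summed to 116 and 231 RPKM. Summed this way, the fast subunits C, I and T were 2.11, 1.99 and 2.69 times higher in the cavefish eye, so that all parts of the fast complex differed in the same direction. Within troponin I the rows diverged. Row 2a.3 stood at 33.1 and 112 RPKM (1.73) and row 2b.2 at 50.5 and 85.8 RPKM (0.75), whereas row 2a.2 stood at 32.9 and 33.7 RPKM (0.03). These are closely related copies, and how the authors divided reads among such copies is not stated, so the single rows are uncertain. A row named only troponin fast skeletal stood at 8.55 and 17.1 RPKM (0.92).

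Slow and cardiac troponins were less uniform. Slow troponin C type 1b stood at 13.2 RPKM in surface fish and 31.6 RPKM in cavefish eyes (1.20), and cardiac troponin T2e at 10.3 and 26.7 RPKM (1.29). Both were past 2-fold. Slow troponin T type 1 lay within 2-fold, at 10.7 and 14.8 RPKM (0.43). The slow troponin I rows pointed in opposite directions, with row a at 22.2 and 15.5 RPKM (-0.49) and row b at 3.70 and 6.70 RPKM (0.71). Slow troponin I was therefore the only troponin subunit whose summed level was lower in the cavefish eye, at 25.9 and 22.2 RPKM over both rows. Row b was kept by its cavefish value alone, so its direction, and with it the contrast to row a, was set by that filter.

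Tropomyosins lie along actin in muscle and in other cells, and their names do not give the tissue. All 5 rows lay above 0 and within 2-fold, in a narrow range of log2 ratios from 0.35 for tropomyosin 3 to 0.46 for tropomyosin 1. The most abundant, tropomyosin 2 (beta), stood at 85.6 RPKM in surface fish and 113 RPKM in cavefish eyes (0.40). Relative to the median of all rows each tropomyosin stood 0.62 to 0.73 higher.

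The giant proteins of the sarcomere were split. Titin a, the molecular spring from Z-disc to M-band, stood at 20.9 RPKM in surface fish and 66.8 RPKM in cavefish eyes (1.63). Obscurin, a titin partner around the myofibril, appeared on 2 rows: the full name stood at 2.85 and 9.32 RPKM (1.42), and a row with part of that name at 6.05 and 16.9 RPKM (1.34). These titin and obscurin rows were past 2-fold. The full-name obscurin row was kept by its cavefish value alone, and with a pseudocount of 5 RPKM both obscurin rows came under 2-fold, at 0.87 and 0.99. A second titin row, marked titin-like and of low quality by its name, stood at 9.32 and 5.59 RPKM (-0.65). Nebulin, the ruler of the thin filament, stood at 4.56 and 6.07 RPKM (0.35) and was kept by its cavefish value alone.

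The 4 Z-disc rows among the members pointed in different directions. Actinin alpha 3b, which crosslinks actin at the Z-disc and is the form of fast fibres in mammals, stood at 23.6 RPKM in surface fish and 37.0 RPKM in cavefish eyes (0.63). Actinin alpha 2, the more widespread striated form, stood at 13.5 and 6.47 RPKM (-0.95). Titin-cap, or telethonin, which anchors titin, stood at 23.9 and 17.1 RPKM (-0.46), and myozenin 1b, a calcineurin-binding Z-disc protein, at 15.9 and 12 RPKM (-0.38). None of these 4 rows was past 2-fold, their median was -0.42, and their sums of 76.8 and 72.5 RPKM were close.

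Among calcium handling rows, ryanodine receptors were close between the eyes and parvalbumins stood higher in cavefish. All 5 ryanodine receptor rows lay within 2-fold, from -0.50 to 0.35. The skeletal receptor 1b stood at 9.35 RPKM in surface fish and 12.2 RPKM in cavefish eyes, at the top of this range. The cardiac-type receptor 2a, also a neuronal channel, was the most abundant and the lowest in ratio, at 57.5 and 40.2 RPKM. The row named ryanodine receptor 2 stood at 17.3 and 20.8 RPKM, and the 2 rows of receptor 3 at 29.4 and 30.1 RPKM and at 9.52 and 8.71 RPKM. Parvalbumins, calcium buffers abundant in fish white muscle and also made in neurons, were higher on all 4 rows, with a median of 0.79 and sums of 182 and 313 RPKM. Parvalbumin 1 stood at 48.9 and 101 RPKM (1.03) and was the only one past 2-fold, a call that ended at 0.97 with a pseudocount of 5 RPKM. Parvalbumin 7 stood at 57.2 and 104 RPKM (0.85), the row named parvalbumin at 9.10 and 15.7 RPKM (0.72), and parvalbumin 6 at 66.6 and 92.9 RPKM (0.48). Parvalbumin 7 was past 2-fold relative to the median of all rows, at 1.12.

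Creatine kinases, which shuttle phosphate between creatine and ATP, held the most abundant member of either eye and the widest range of ratios. Muscle creatine kinase b stood at 175 RPKM in surface fish and 728 RPKM in cavefish eyes (2.05), and muscle creatine kinase a at 215 and 454 RPKM (1.07). The order of these cytosolic paralogs was reversed between the eyes. The row named creatine kinase, mitochondrial 2 (sarcomeric) went the other way, at 164 and 39.2 RPKM. Its log2 ratio of -2.03 was the lowest of all members, and it was the only striated row past 2-fold lower. It counts as striated by its name, and its source within the eye was not tested. Brain creatine kinase b, the cytosolic form of neural tissue, was the most abundant member in the surface fish eye, at 1501 RPKM, and stood at 555 RPKM in the cavefish eye (-1.43). Brain creatine kinase a stood at 36.3 and 18.6 RPKM (-0.93) and mitochondrial creatine kinase 1 at 15.6 and 11.9 RPKM (-0.36). The muscle rows a and b made up 20.3% of the summed RPKM of the 4 cytosolic creatine kinase rows in the surface fish eye and 67.3% in that of the cavefish. Leaving out all creatine kinases also leaves out the only striated row past 2-fold lower. Of the remaining 34 striated rows, 13 (38.2%) were 2-fold higher and none was 2-fold lower, with a median of 0.75. Of these 34 rows, 7 lay below 0, down to -0.95. Over all rows, 3.83% were 2-fold higher and 10.1% were 2-fold lower.

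**Figure D2:**
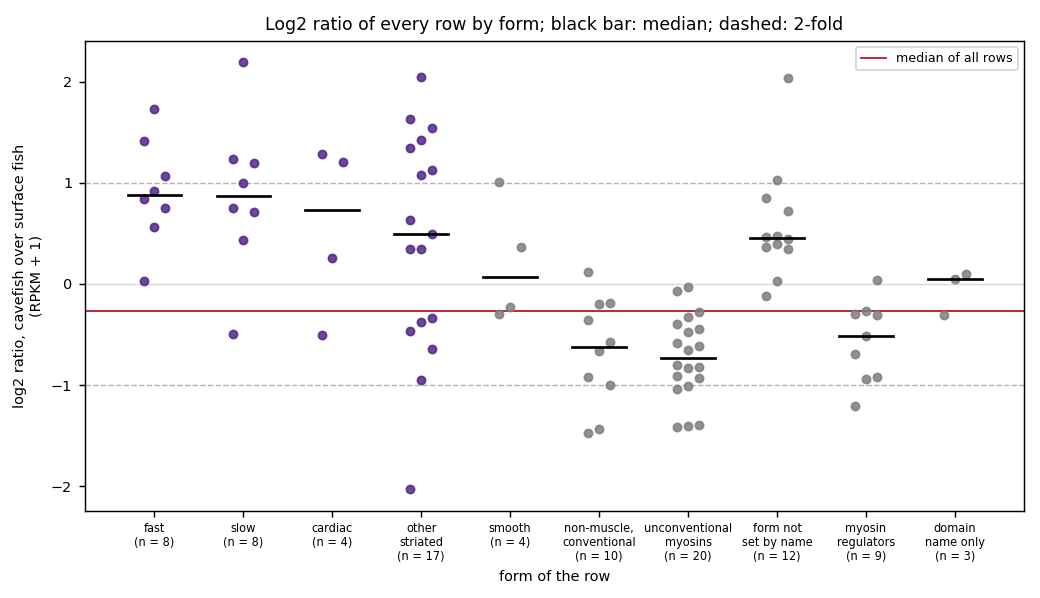
Log2 ratio of cavefish over surface fish RPKM, each plus 1, for every member row (points) by form, with the median of each form as a black bar, 2-fold as dashed lines and the median of all rows in red. Medians of the fast, slow and cardiac rows lie at 0.88, 0.87 and 0.73, and that of the unconventional myosins at -0.73.

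Smooth muscle forms showed no common direction. Besides smooth muscle actin, the 3 light chains of smooth and non-muscle cells were myosin light polypeptide 9 like, at 147 RPKM in surface fish and 191 RPKM in cavefish eyes (0.37), myosin light chain 9 at 10.7 and 8.98 RPKM (-0.23), and myosin light chain 6 at 6.79 and 14.7 RPKM (1.01). Only light chain 6 was past 2-fold, and it came under it, at 0.74, with a pseudocount of 5 RPKM. The 4 smooth rows had a median of 0.07. Among 9 rows of a list of other smooth muscle and pericyte genes, 1 was 2-fold lower and none was higher. This lower share of 11.1% was near the 10.1% of all rows, and the median was 0.00. Desmin a was on this list and also on the list of skeletal muscle genes given below. The list also held leiomodin 2 (cardiac) b, cardiac by its name, at 3.31 and 5.22 RPKM (0.53). That row was kept by its cavefish value alone. The actin-binding protein transgelin, a marker of smooth muscle, stood at 27.2 and 27.3 RPKM (0.00), and smoothelin b at 36.1 and 9.19 RPKM (-1.86).

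Non-muscle myosins, which drive cell shape and division, were represented by 4 heavy chain rows. All 4 lay below 0, as did 6634 of all 9649 rows, and 3 lay below the median of all rows. Non-muscle heavy chain 9 was the most abundant, at 39.6 RPKM in surface fish and 24.6 RPKM in cavefish eyes (-0.66). Heavy chain 14, known from epithelia, stood at 24.7 and 8.23 RPKM (-1.48) and was the only one past 2-fold. Heavy polypeptide 9a stood at 14.2 and 9.20 RPKM (-0.58). Heavy chain 10 stood at 18.2 and 15.8 RPKM (-0.19), a ratio that was 0.08 relative to the median of all rows, so its direction depends on the scale. Their light chain 12 was split between its genome duplicates, with duplicate 1 at 51.2 and 25.2 RPKM (-0.997, just within 2-fold) and duplicate 2 at 16.0 and 17.4 RPKM (0.12). The non-muscle actinin alpha 1 stood at 9.52 and 8.17 RPKM (-0.20).

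All 20 rows of unconventional myosins, a class that includes motors of membranes and organelles, lay below 0, as did 6634 of all 9649 rows. Below the median of all rows lay 18 of the 20. Past 2-fold lower were 5 of the 20 (25%), against 10.1% of all rows. Myosins IIIA, IXa-like 1, ixb, VIa and XVIII-like 2 were kept by their surface fish values alone, so the 5 RPKM filter set their direction. Myosin XIX, a motor of mitochondria, was the most abundant in the surface fish eye, at 41.9 RPKM, and with 15.0 RPKM in the cavefish eye the lowest in ratio, at -1.42. Myosin IE, a membrane-bound motor, stood at 27.3 and 9.66 RPKM (-1.41). Myosin IIIA, known from photoreceptors and hair cells, stood at 14 and 4.70 RPKM (-1.39) and was in the tables only through the surface fish eye; with a pseudocount of 5 RPKM it was -0.97. Myosin X, a motor of filopodia, stood at 24.5 and 11.6 RPKM (-1.01), with a row named X-like 2 at 19.7 and 9.11 RPKM (-1.04) and X-like 3 at 8.18 and 8 RPKM (-0.03). Relative to the median of all rows, myosin X and X-like 2 came under 2-fold, at -0.74 and -0.77 (-0.83 and -0.81 with a pseudocount of 5 RPKM), while XIX, IE and IIIA stayed past it.

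Other unconventional myosins were lower by less. Myosin VIIAb, of the family that serves pigment epithelium and photoreceptors in mammals, stood at 17.6 RPKM in surface fish and 8.72 RPKM in cavefish eyes (-0.93). Myosin XVIII-like 1 stood at 31.0 and 16.0 RPKM (-0.91), and myosin IC at 30.9 and 16.9 RPKM (-0.83). The 7 rows of myosin IX ranged from -0.82 to -0.28, none past 2-fold. They carry overlapping names, such as myosin ixa and myosin IXA, and may be parts of the same genes. Myosin 1b-like 2, the most abundant in the cavefish eye, stood at 30.5 and 29.0 RPKM (-0.07).

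**Figure D3:**
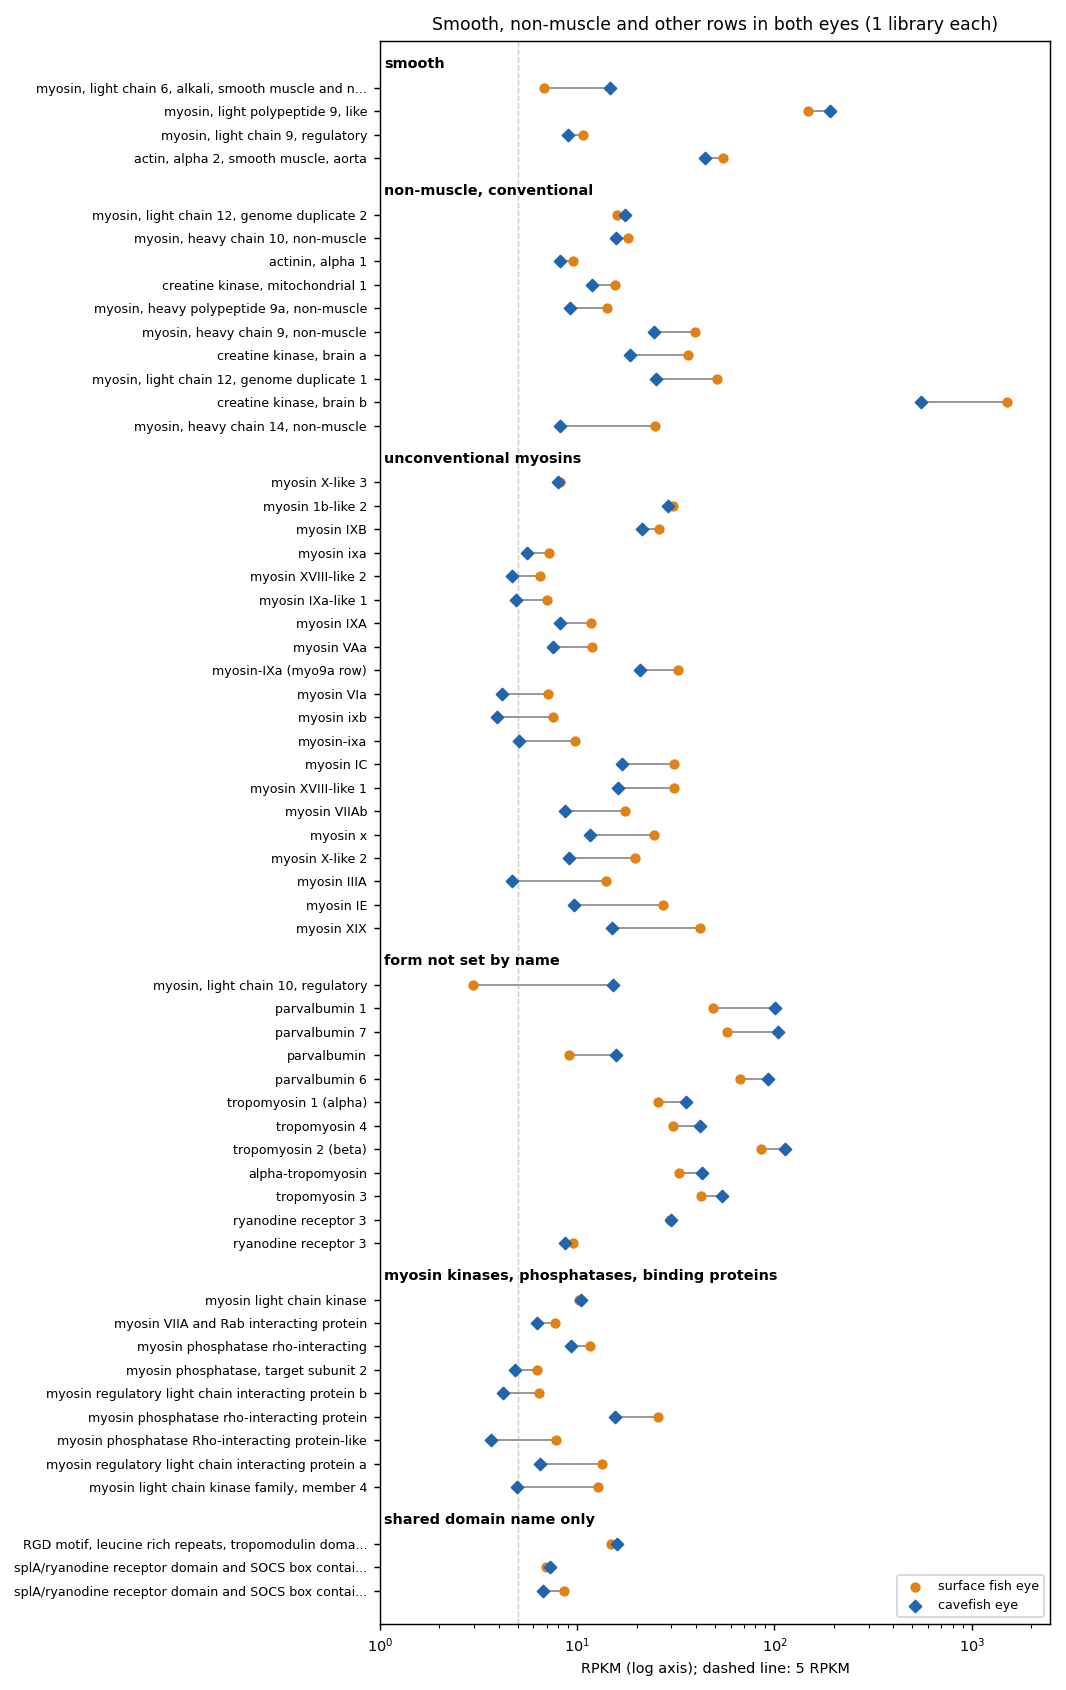
RPKM on a log axis of the remaining 58 member rows in the surface fish eye (circles) and the cavefish eye (diamonds), 1 library each, grouped by form and ordered by log2 ratio. In all 20 unconventional myosin rows the surface fish value is the higher one, whereas the parvalbumin and tropomyosin rows lie the other way.

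Proteins that act on myosin had a median of -0.52 over 9 rows. Myosin light chain kinase, which switches on smooth and non-muscle myosin, stood at 10.2 RPKM in surface fish and 10.5 RPKM in cavefish eyes (0.04). The kinase family member 4 stood at 12.7 and 4.95 RPKM (-1.20), the only row of this set past 2-fold; relative to the median of all rows it was -0.93, and with a pseudocount of 5 RPKM -0.83. It was in the tables only through its surface fish value. The most abundant row, myosin phosphatase rho-interacting protein, stood at 25.7 and 15.6 RPKM (-0.69). The remaining 3 members share only a domain name with contraction genes (a tropomodulin domain or the splA/ryanodine receptor domain) and ranged from -0.31 to 0.09.

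Other genes of skeletal muscle outside the member names were read from a list of markers, of which 33 rows were matched. Of these rows 7 (21.2%) were 2-fold higher in the cavefish eye and 1 was lower, with a median of 0.37. Over all rows, 3.83% were 2-fold higher and 10.1% lower. Myoglobin, the oxygen store of muscle, stood at 53.5 RPKM in surface fish and 292 RPKM in cavefish eyes (2.43). Muscle phosphoglycerate mutase 2, a glycolytic enzyme, stood at 23.5 and 54.9 RPKM (1.19), and muscle glycogen phosphorylase A at 8.59 and 20.1 RPKM (1.13). The other muscle phosphorylase row, b, stood at 62.7 and 43.9 RPKM (-0.50). Calsequestrin 1, which stores calcium in the sarcoplasmic reticulum, stood at 7.47 and 16.2 RPKM (1.02). Also past 2-fold were the small heat shock proteins b6, at 10.9 and 28.5 RPKM (1.32), b8, at 2.04 and 5.98 RPKM (1.20), and the row heat shock protein beta-1, at 3.73 and 9.46 RPKM (1.14). The rows b8 and beta-1 were kept by their cavefish values alone. So were, within 2-fold, xin repeat 2a at 3.8 and 5.51 RPKM (0.44) and phosphorylase kinase gamma 1a at 3.62 and 7.12 RPKM (0.81). The same held for acetylcholine receptor alpha 1, at 3.35 and 6.21 RPKM (0.73). Heat shock protein b7, at 7.33 and 3.92 RPKM (-0.76), was kept by its surface fish value alone. The 5 RPKM filter set the direction of these rows, which count in the median of 0.37. The names of b6, b8 and beta-1 give no tissue, and their source within the eye was not tested. With both eyes at 5 RPKM or more, 5 rows of the list were higher, as were 179 of all 7719 rows at that level. With a pseudocount of 5 RPKM, b8, beta-1, calsequestrin 1 and phosphorylase A came under 2-fold, at 0.64, 0.73, 0.76 and 0.88.

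The lower row of that list was dystrophin, which ties actin to the membrane in muscle and is also made in retinal photoreceptors, at 99.7 RPKM in surface fish and 29.5 RPKM in cavefish eyes (-1.72). The most abundant rows within 2-fold were the hspb1 protein, at 69.8 and 108 RPKM (0.62), glycogen phosphorylase b given above, the fast twitch calcium pump row marked like, at 48.0 and 94.8 RPKM (0.97), and the muscle enolase 3, a glycolytic enzyme, at 25.5 and 42.4 RPKM (0.71). The calcium pump row was past 2-fold relative to the median of all rows, at 1.24. Desmin a, the intermediate filament of muscle, stood at 9.71 and 20.4 RPKM, and its log2 ratio of 0.997 lay just under the threshold. Triadin, which couples the ryanodine receptor to calsequestrin, stood at 11.0 and 6.84 RPKM (-0.61). The 1 matched row of the cardiac list, the slow twitch calcium pump 2a, stood at 11.0 and 10.5 RPKM (-0.06).

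Markers of other tissues of a dissected eye moved between the same libraries. Rod transducin alpha, given above, had a log2 ratio of -1.74, and cone transducin alpha stood at 422 and 126 RPKM (-1.73), both 2-fold lower. Of 5 epithelial markers, summing to 1071 and 243 RPKM, 3 were 2-fold lower, and both blood globin rows, summing to 1634 and 486 RPKM, were lower too. Of the 28 lens crystallin rows, 15 were 2-fold higher and none lower, against 3.83% and 10.1% of all rows. The part of these tissue levels in the ratios of the muscle and non-muscle rows was not tested. The labels name 2 individuals per species and 2 sequencing instruments without saying which library they belong to, so that species, animal and instrument cannot be told apart.

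**Figure D4:**
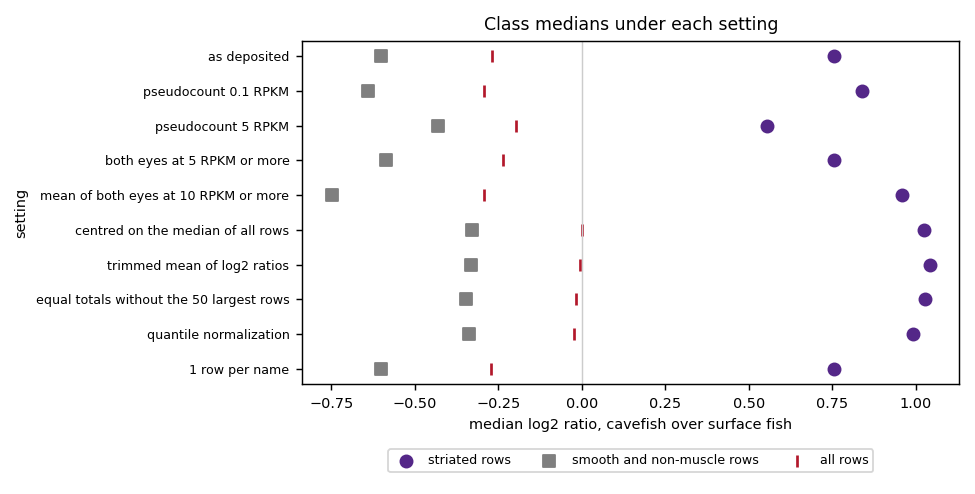
Median log2 ratio of the 37 striated rows (circles), the 34 smooth and non-muscle rows (squares) and all rows (bars) as deposited and under 9 other settings of the computation. Filters on low rows left 31 striated rows (both eyes at 5 RPKM or more) and 28 (mean of 10 RPKM or more). The striated median lies between 0.56 and 1.04 and the smooth and non-muscle median between -0.75 and -0.33 in every setting shown, on either side of the median of all rows.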

How the data were processed

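RNA was measured by sequencing of polyadenylated RNA, per the labels' protocols, on Illumina instruments of 2 kinds. The authors deposited RPKM values, 1 table per eye, with the same 9649 rows in each, per the file headers. The submitters' processing notes list Bowtie 0.12.2 without its role. The reference, the transcript lengths and the handling of reads that match several genes were not stated, so related copies can share reads, and the depth is unknown. RPKM totals were 684735.55 for surface fish and 665573.62 for cavefish; the largest pair of rows held 53.2% and 62.6% of them.

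Log2 ratios were computed after adding 1 RPKM, which understates the difference of low rows. No test was made with 1 library per group. Rows were put in a form by their name, or, where the name gives no tissue (actinins 1, 2 and 3b, titin, light chains 9 and 12 and others), by where the gene is known to act. Members and lists were chosen with earlier results of these data known. Named rows were, in each role, the most abundant, the highest and lowest ratio and every row past 2-fold, and in the list of other muscle genes every row past 2-fold and the 4 most abundant others; further members are named to show the range of a role, and desmin a, triadin, transgelin and the slow twitch calcium pump were chosen after their values were seen. Alternatives were pseudocounts of 0.1 and 5 RPKM, filters on low rows, 4 scalings, a 4-fold threshold and 1 row per name. Some results are not reported here. The computation was tested on simulated data. Python 3.11.15, numpy 2.4.6, pandas 2.3.3 and matplotlib 3.10.9 were used.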

Additional observations from a re-analysis of the deposited data

How the results depend on the processing

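No paired analysis was possible because each species has 1 eye library, and for the same reason no library could be left out. The median of all 95 members, -0.07, changed sign under 7 settings, at 0.030 with both eyes at 5 RPKM or more, 0.30 with a mean of 10 RPKM or more, 0.20 centred on the median of all rows, 0.21 after a trimmed mean of log2 ratios, 0.20 with equal totals without the 50 most abundant rows, 0.17 after quantile normalization and 0.000502 with 1 row per name. In the same order of settings, without the first and the last, the striated median of 0.75 was 0.96, 1.02, 1.04, 1.03 and 0.99, and the smooth and non-muscle median of -0.60 was -0.75, -0.33, -0.33, -0.35 and -0.34. A pseudocount of 5 RPKM gave 0.56 and -0.43. Neither of these group medians changed sign. The count of 9 members lower became 14 with a pseudocount of 0.1 RPKM, 5 with a pseudocount of 5 RPKM, 5 after quantile normalization and 1 at 4-fold, and the count of 18 higher became 3 at 4-fold. Over all 9649 rows the lower counts were 1169, 517, 559 and 124 in that order, and 58 rows were higher at 4-fold. The count of 7 other muscle rows higher became 3 with a pseudocount of 5 RPKM, 11 after quantile normalization and 1 at 4-fold. In the same settings 173, 597 and 58 of all rows were higher. Past 4-fold were myosin light chains 3 and 10 and muscle creatine kinase b, and, lower, sarcomeric mitochondrial creatine kinase. Centring brought 6 further members past 2-fold and took 3 under it, all 3 of them lower. Depth is unknown, so how far counting error limits the rows near 5 RPKM could not be given. The cause of these differences was not tested, nor was that of the lower median of all rows, which the scalings largely remove.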

Other observations

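Some muscle-related rows outside the member names and the list were chosen after their values were seen. Myostatin b, a secreted inhibitor of muscle growth, stood at 60.0 RPKM in surface fish and 210 RPKM in cavefish eyes, a log2 ratio of 1.79. Synaptopodin 2, an actin-binding protein of the Z-disc, stood at 13.2 and 28.8 RPKM (1.07), whereas nebulette, a nebulin relative known from the cardiac Z-disc in mammals, stood at 13 and 4.54 RPKM (-1.34). With a pseudocount of 5 RPKM these last rows came under 2-fold, at 0.89 and -0.92, and nebulette was kept by its surface fish value alone. The cytoplasmic actin row bactin2 was close in both eyes, at 919 and 1033 RPKM (0.17).

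The row names of the deposited tables end with a space in 6549 rows and without one in 3100 rows. By the plain ratio of the deposited values, 52.5% of the names without a final space were past 2-fold, against 0.504% of those with one. Among the members, 34 of 44 names without a final space were past 2-fold by that ratio, and 1 of 51 with one, myosin light chain 10. The format of the names thus goes with the size of the ratio in these tables; why it does so was not tested.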
